A study of Mus musculus with 6 samples.

Results

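The sarcomeric myosin heavy chain genes described here were *Myh1*, *Myh2*, *Myh3*, *Myh4*, *Myh6*, *Myh7*, *Myh7b* and *Myh8*. These 8 genes were taken by their symbols from the 37979 genes measured, and each symbol matched 1 entry. They were picked by name and not by a cutoff on their values, though earlier results of these data were known. RNA of the hindlimb gastrocnemius (GAS) muscle came from 3 wildtype (WT) and 3 Kvβ2 knockout (KO) mice at 20 weeks of age. Both genotypes were bred by crossing Kvβ2+/− null mice with each other, neither was treated, and replicates are numbered 1, 7 and 8 within a genotype. The methods name no tissue-restricted deletion, so the loss of Kvβ2, an auxiliary subunit of voltage-gated potassium channels encoded by *Kcnab2*, was not limited to muscle. Levels are in FPKM, fragments scaled to the length of the transcript and the mapped total of the library, which can be compared between genes because they are set per length.

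In young Kvβ2 KO mice, 6 of the 8 genes were high enough to be tested, and 0 of the 6 were called (limma on log2(FPKM + 0.1), Benjamini-Hochberg adjusted p under 0.05). The background was 0.324% of the 12334 tested genes called, 0.251% higher and 0.073% lower in KO muscle, so 0 of 6 is near it. The 6 genes were above 0 in every library. With genes listed at 0 in any library left out, 1 of 12092 tested genes was called, and 0 of these 6. All 6 had higher means in the KO mice, with a median log2 fold change of 1.04 against 0.01 for all tested genes, of which 51% were higher. *Myh2*, the fast IIA myosin, and *Myh8*, the perinatal myosin, were the genes whose KO libraries all lay above all WT libraries. Among tested genes, 18.3% had this arrangement. The same 2 genes had an unadjusted p under 0.05. Limma's array weights count some libraries more than others, above all WT replicate 7. With them 3 of the 6 were called, beside 25.5% of all tested genes, or 15.1% called higher. All 3 were higher in KO muscle. The slow myosin *Myh7* had the largest fitted difference of the 6, but that difference rests on WT replicate 8, in which *Myh7* was almost missing.

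Myosin heavy chains are the motor proteins of the thick filament. The head of the molecule binds actin and splits ATP, and the coiled-coil tail packs into the filament. Adult limb muscle fibers are typed by the chain they carry: the slow chain *Myh7* in type I fibers, and the fast chains *Myh2*, *Myh1* and *Myh4* in type IIA, IIX and IIB fibers, in order of rising shortening speed. *Myh3* is the embryonic and *Myh8* the perinatal chain, both used again when muscle regenerates. *Myh6* is the alpha chain of the heart, also present in some specialized muscle fibers, and *Myh7b* is an ancient slow chain that hosts a microRNA. Mouse GAS is mainly a fast muscle, rich in type IIB fibers, with slow fibers mostly in a deep region.

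The fast and developmental genes lie side by side on the plus strand of chromosome 11 (GRCm38, gene limits from GENCODE vM21). *Myh3* runs from 67078300 to 67102291, *Myh2* from 67171027 to 67197517, *Myh1* from 67200052 to 67224575, *Myh4* from 67238029 to 67260446 and *Myh8* from 67277124 to 67308634. The cardiac and slow pair lies on the minus strand of chromosome 14, with *Myh6* from 54941921 to 54966927 and *Myh7* from 54970684 to 54994626. *Myh7b* lies apart on the plus strand of chromosome 2, from 155611212 to 155634307.

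The bases before the start sites of *Myh1*, *Myh4* and *Myh8* are shown because the 3 windows hold the same match, although 1 of the genes is among the highest of the cluster in these data, 1 is listed at 0 and 1 is low. They are RefSeq promoter windows on GRCm38.p6, plus strand, at chr11:67199852-67200051 for *Myh1*, chr11:67237562-67237811 for *Myh4* and chr11:67276874-67277123 for *Myh8*. The *Myh1* window is printed up to the base before the GENCODE start of the gene. Capitals mark matches to the binding motif of MEF2, a muscle transcription factor, and to TATAAA, each searched on both strands.
Myh1: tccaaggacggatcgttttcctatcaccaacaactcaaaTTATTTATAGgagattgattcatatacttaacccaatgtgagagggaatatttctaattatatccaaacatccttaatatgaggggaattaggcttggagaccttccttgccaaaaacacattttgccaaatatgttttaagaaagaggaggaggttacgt
Myh4: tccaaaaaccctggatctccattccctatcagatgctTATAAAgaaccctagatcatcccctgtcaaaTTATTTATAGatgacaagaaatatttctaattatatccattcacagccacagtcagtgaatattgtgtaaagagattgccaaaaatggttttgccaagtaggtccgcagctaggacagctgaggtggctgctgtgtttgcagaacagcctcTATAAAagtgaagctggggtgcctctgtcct
Myh8: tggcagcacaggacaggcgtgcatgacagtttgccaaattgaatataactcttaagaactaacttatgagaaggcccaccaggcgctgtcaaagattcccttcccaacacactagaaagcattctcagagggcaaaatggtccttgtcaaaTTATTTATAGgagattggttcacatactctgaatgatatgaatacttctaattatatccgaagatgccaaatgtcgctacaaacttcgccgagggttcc

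The MEF2 match, TTATTTATAG in all 3 windows, began at position -211 from the RefSeq start site of *Myh1*, at -182 from that of *Myh4* and at -99 from that of *Myh8*. It contains a TATAAA match on the other strand in each case, so these overlap. Further TATAAA matches began at -213 and -31 for *Myh4*, at -32 for *Myh1*, in the bases not printed, and at -29 for *Myh3*. The 250-base windows of *Myh2*, *Myh6*, *Myh7* and *Myh7b* held neither match. Of all 32851 RefSeq promoter windows of this length, 2.92% held the MEF2 motif and 12.4% held TATAAA. These matches describe letters, not bound sites.

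Introns of 3 of the genes hold microRNAs that are known to reinforce the slow program. The gene of miR-208a lies in intron 29 of *Myh6*, that of miR-208b in intron 31 of *Myh7* and that of miR-499 in intron 19 of *Myh7b*, counted in the longest coding transcript of each host. The mature arms are given from RefSeq (GRCm38.p6), with the seed, bases 2 to 8, in capitals.
miR-208a-3p: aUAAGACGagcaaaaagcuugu
miR-208b-3p: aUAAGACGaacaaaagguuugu
miR-499-5p: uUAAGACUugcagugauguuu
The seeds of miR-208a and miR-208b were the same, UAAGACG, and that of miR-499 ended in another base, UAAGACU. All 3 microRNA genes were listed at 0 in every library. Messenger RNA libraries of this kind capture mature microRNAs poorly, and these levels were not read as absence.

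The coding sequences are close copies of each other, which bears on how the fragments of 1 gene can be told from those of another. Over the aligned coding bases, *Myh1* was 91.1% identical to *Myh2* and 90.3% identical to *Myh4*, and *Myh6* was 91.8% identical to *Myh7*. Of the windows of 50 coding bases, 27.2% of those in *Myh1*, 27.9% in *Myh2*, 19.2% in *Myh4* and 21.1% in *Myh8* occurred letter for letter in another of the 8 genes. The shares were 23.8% for *Myh6*, 23.9% for *Myh7*, 3.79% for *Myh3* and 0% for *Myh7b*. A window of 50 bases is shorter than the paired reads that the paper names. These are therefore shares of windows, not of fragments that could not be assigned to 1 gene. The longest stretch shared by *Myh1* and *Myh4* has 161 bases, spread over 3 exons of each gene at chr11:67214635-67214970 and chr11:67252684-67253206, and is given from GENCODE vM21 as the sequence that a fragment from either gene would carry.
Myh1 and Myh4: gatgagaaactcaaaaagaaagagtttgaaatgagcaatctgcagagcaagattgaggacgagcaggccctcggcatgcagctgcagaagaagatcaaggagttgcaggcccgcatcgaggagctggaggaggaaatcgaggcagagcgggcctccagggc
The values of *Myh1*, *Myh2*, *Myh4*, *Myh6*, *Myh7* and *Myh8* are uncertain to the extent that fragments from such stretches were divided between copies. How the authors' counting divided them was not tested.

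Depth, estimated from the low FPKM values, was 19230000 to 20140000 fragments in the WT and 13960000 to 18150000 in the KO libraries. *Kcnab2* was at 0.10 to 0.233 FPKM in WT and at 0 to 0.0151 FPKM in KO muscle. The tissue label was checked against 8 skeletal muscle genes, all of which passed the filter, with sums of 35963 to 51725 FPKM in WT and 48987 to 55674 FPKM in KO libraries. WT replicate 8 stood apart for slow fiber genes. Of 12092 tested genes above 0 in every library, 6 were at least 10-fold lower there than in each other library, and the other libraries had 0 to 2 such genes. Where leaving out this library moved a difference of a myosin gene or ratio strongly, the value without it is given as well. In bulk muscle, fewer cells of a type and less RNA per cell cannot be told apart.

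By mean level the genes stood in the order *Myh1*, *Myh2*, *Myh7*, *Myh6*, *Myh7b*, *Myh8* and *Myh3*. *Myh1* was above *Myh2* in 5 of 6 libraries, the exception being WT replicate 8. *Myh2* was above *Myh7* and *Myh8* above *Myh3* in all 6 libraries, with ranges apart in both genotypes. *Myh7* was above *Myh6* in 5 libraries, again with WT replicate 8 as the exception. *Myh6* was above *Myh7b* in each of the 6, but their ranges overlapped in both genotypes. *Myh7b* and *Myh8* changed places, with *Myh7b* higher in 3 libraries, so their order does not hold beyond the spread.

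**Figure D1:**
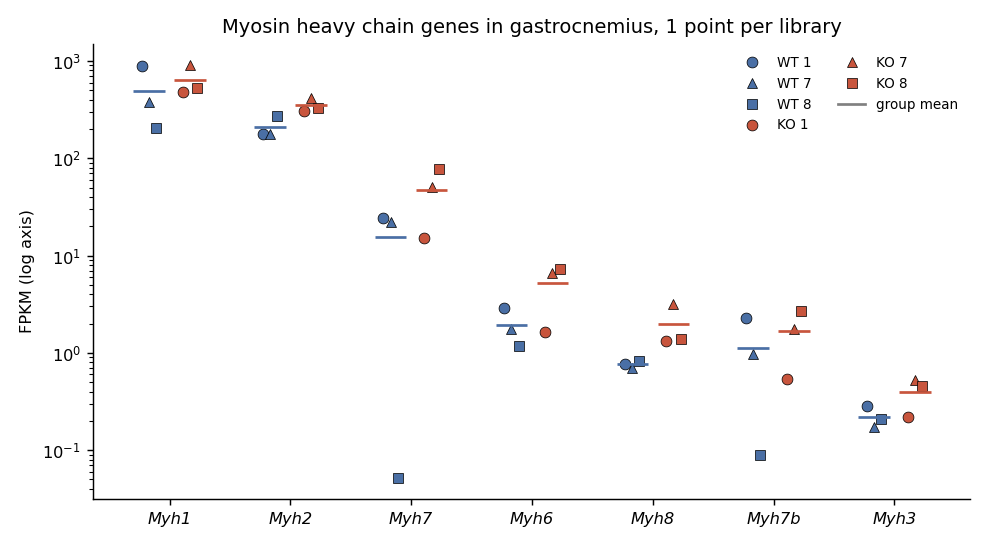
Level of each gene (FPKM, log axis) in every library, with WT in blue on the left and KO in red on the right of each gene. Points are libraries, with the shape giving the replicate number, and bars are group means. *Myh4*, listed at 0, is not drawn. *Myh2* and *Myh8* have all KO points above all WT points, and *Myh7* and *Myh7b* have 1 WT point, replicate 8, far below the others.

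*Myh1* (ENSMUSG00000056328), the fast IIX chain, was the most abundant myosin heavy chain listed. WT replicates 1, 7 and 8 held 881, 377 and 203 FPKM, and KO replicates 1, 7 and 8 held 483, 918 and 522 FPKM, the order used below for all genes. The WT libraries spanned a 4.34-fold range, and the KO values lay within or just above it. The means were 487 ± 352 FPKM (SD, n = 3) in the WT mice and 641 ± 241 (SD, n = 3) in the KO mice. The log2 fold change was 0.59 with a standard error of 0.51 and a 95% interval from -0.59 to 1.78 (limma, adjusted p = 0.474), so a difference was not shown. Without WT replicate 8 it was 0.09.

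*Myh2* (ENSMUSG00000033196), the fast oxidative IIA chain, had 178, 179 and 274 FPKM in WT and 304, 419 and 329 FPKM in KO libraries. The lowest KO library lay above the highest WT library. Mean levels were 210.3 ± 55.3 FPKM (SD, n = 3) and 351 ± 60.2 FPKM (SD, n = 3). The log2 fold change was 0.75 (standard error 0.20, 95% interval 0.28 to 1.23), which is 1.69-fold. Its unadjusted p of 0.00679 became 0.0932 after adjustment in limma, so *Myh2* did not pass the test. An unadjusted p under 0.05 with a higher KO level occurred in 15.3% of tested genes. With each library left out in turn the log2 fold change of *Myh2* stayed between 0.62 and 0.96. The KO libraries lay within 1.38-fold of each other. WT replicate 8, the library with the lowest *Myh1*, had the highest *Myh2* of the WT libraries.

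*Myh4* (ENSMUSG00000057003), the IIB chain that is the typical fast myosin of mouse GAS, was listed at 0 in all 6 libraries. The fast fiber genes *Tnnt3*, fast troponin T, and *Atp2a1*, the fast calcium pump of the sarcoplasmic reticulum, were listed at 0 throughout as well. Other fast fiber genes were among the highest of the table, such as *Myl1*, a fast light chain, at 16204 ± 2083 FPKM (SD, n = 3) in WT muscle. The 0 of *Myh4* is therefore given as listed and not as a measured absence, and nothing is said here about type IIB fibers.

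The composition of the remaining 7 chains was followed as the share of each in their summed FPKM, which leaves out *Myh4*. *Myh1* held 80.9%, 64.8% and 42.3% in WT replicates 1, 7 and 8 and 59.9%, 65.6% and 55.5% in KO replicates 1, 7 and 8. *Myh2* held 16.3%, 30.7% and 57.2% in the WT libraries and 37.7%, 29.9% and 35.0% in the KO libraries. The KO libraries were close to each other and lay inside the WT range for both genes. The *Myh2* to *Myh1* ratio was 0.202, 0.474 and 1.35 in WT and 0.629, 0.456 and 0.630 in KO muscle, with a mean log2 difference of 0.16 (exact permutation test, two-sided, p = 0.8, adjusted p = 0.8 over 4 ratios). With 3 against 3 libraries the smallest p that this test allows is 0.1. The ratio was not shown to differ beyond the spread of the WT libraries, and the difference was 0.87 without WT replicate 8.

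**Figure D2:**
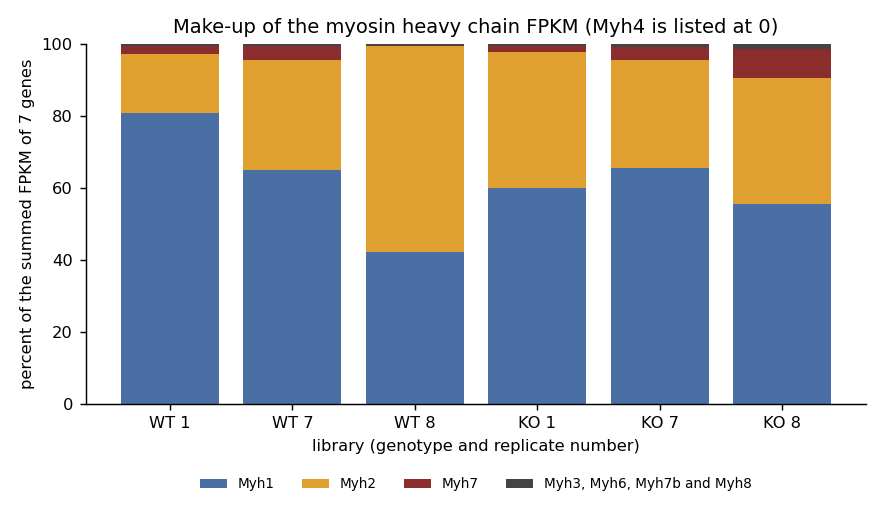
Percent of the summed FPKM of 7 myosin heavy chain genes held by each gene in every library (stacked bars, from 0 to 100%). *Myh1* and *Myh2* hold nearly all of it, and the *Myh1* share runs from 42.3% in WT replicate 8 to 80.9% in WT replicate 1, with the 3 KO libraries in between.

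The annotation places 2 antisense genes of the minus strand over the fast chains, looked up by position after the levels of the myosins were seen. *Gm12300* (ENSMUSG00000085348, named *Myhas* in GENCODE vM21) runs from 67211256 to 67237573, from within *Myh1* to the first bases of the *Myh4* window printed above. Of its 2027 exonic bases, 515 are also exonic in *Myh1*. It was at 222, 115 and 63.7 FPKM in WT and at 118, 252 and 133 FPKM in KO muscle. Relative to *Myh1* this was 0.252, 0.305 and 0.314 in WT and 0.244, 0.275 and 0.255 in KO muscle. *Gm12300* spanned a 3.96-fold range over the 6 libraries and *Myh1* a 4.53-fold range, and their ratio a range of 1.29-fold. *Gm12300* was not called (log2 fold change 0.43, standard error 0.46, limma adjusted p = 0.581), and leaving out 1 library gave -0.01 to 0.88.

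*9430073C21Rik* (ENSMUSG00000085479) runs from 67195680 to 67199234, from the 3′ end of *Myh2* to 818 bases before *Myh1*, and 237 of its 2173 exonic bases are exonic in *Myh2*. It was at 23.6, 9.73 and 3.83 FPKM in WT and at 11.1, 29.2 and 20.8 FPKM in KO muscle. Like *Myh1*, it was lowest in WT replicate 8 and highest in KO replicate 7. Its ratio to *Myh1* spanned 2.11-fold over the 6 libraries and its ratio to *Myh2*, the gene it overlaps, 9.48-fold. Its log2 fold change was 0.97 (standard error 0.63, limma adjusted p = 0.358), and leaving out 1 library gave 0.32 to 1.61. For both antisense genes the lowest of these values was the one without WT replicate 8. The library kit keeps strand, but the strand setting of the authors' counting is not given in the sources used here, so overlapping reads may not be told apart.

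**Figure D3:**
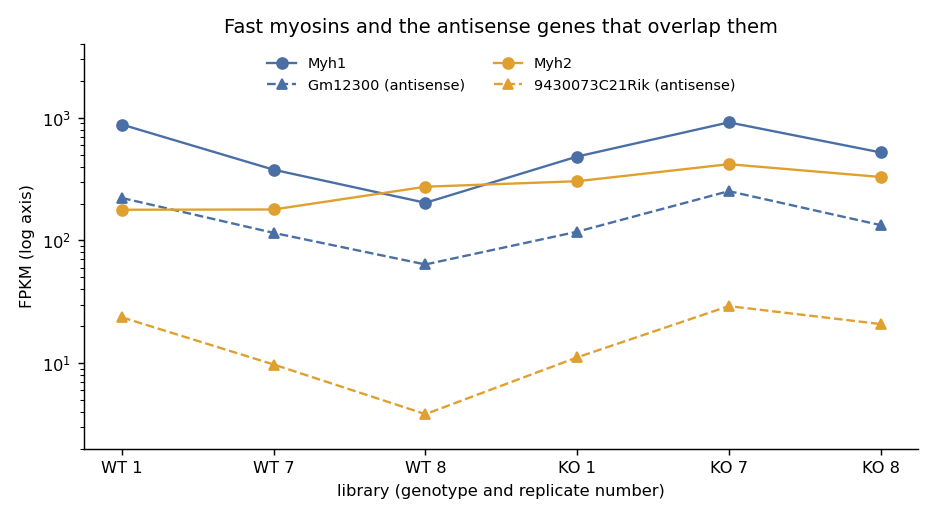
Levels (FPKM, log axis) of *Myh1* and *Myh2* (circles) and of the antisense genes *Gm12300* and *9430073C21Rik* (triangles) in every library, with lines that join the values of 1 gene. Both antisense genes are lowest in WT replicate 8, at 63.7 and 3.83 FPKM, as is *Myh1*, while *Myh2* is not.

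*Myh7* (ENSMUSG00000053093), the slow chain of type I fibers and of the heart's ventricle, was at 24.3, 22.1 and 0.0513 FPKM in WT and at 15.2, 50.5 and 77.4 FPKM in KO muscle. Those WT values equal about 2929, 2652 and 6 fragments. WT replicate 8 was 431-fold under the lower of the other WT libraries, and KO replicate 1 lay under both of these. The means were 15.5 ± 13.4 FPKM (SD, n = 3) in the WT mice and 47.7 ± 31.2 (SD, n = 3) in the KO mice. The log2 fold change was 3.17 with a standard error of 1.85 and a 95% interval from -1.16 to 7.5 (limma, adjusted p = 0.309). Without WT replicate 8 it was 0.75. In neither case did *Myh7* pass the test.

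WT replicate 8 was low in most slow fiber genes. Besides *Myh7*, the genes at least 10-fold lower in it than in each other library were *Tnni1*, *Tnnt1* and *Tnnc1*, the slow troponins I, T and C, with *Cilp2* and *Vps13d*. *Tnni1* was at 34.4, 30.5 and 0.378 FPKM in WT and at 18.9, 73.3 and 119 FPKM in KO muscle. *Tnnc1*, the troponin C of slow and heart muscle, was at 111, 77.4 and 1.22 FPKM in WT and at 47.4, 138 and 279 FPKM in KO muscle. The 6 libraries ranked alike for *Myh7* and these 2 troponins. Of the 13 slow fiber genes, which do not include the myosin heavy chains, WT replicate 8 was the lowest library for 10 and KO replicate 8 the highest for 10.

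The slow fiber genes were 13 of 13 tested, with 0 called in limma, 0 at an unadjusted p under 0.05 and 13 higher in KO muscle, and a median log2 fold change of 1.35. Their summed level was 1289.6, 904 and 152 FPKM in WT and 519, 1736 and 2495 FPKM in KO muscle. KO replicate 1 lay under WT replicates 1 and 7, as it did for *Myh7*. The 4 most abundant were *Myl2*, *Tpm3*, *Actn2* and *Tnnc1*. *Myl2*, the slow regulatory light chain, was at 227 ± 191 FPKM (SD, n = 3) in the WT mice and 412 ± 285 (SD, n = 3) in the KO mice, and its log2 fold change of 1.35 became 0.04 without WT replicate 8. *Tpm3*, slow tropomyosin, went from 1.39 to -0.02 and *Tnnc1* from 2.44 to 0.40 in the same way. *Actn2*, an alpha-actinin of the Z-disc, went from 0.99 to 0.63. Over the list the median was 0.40 without that library.

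**Figure D4:**
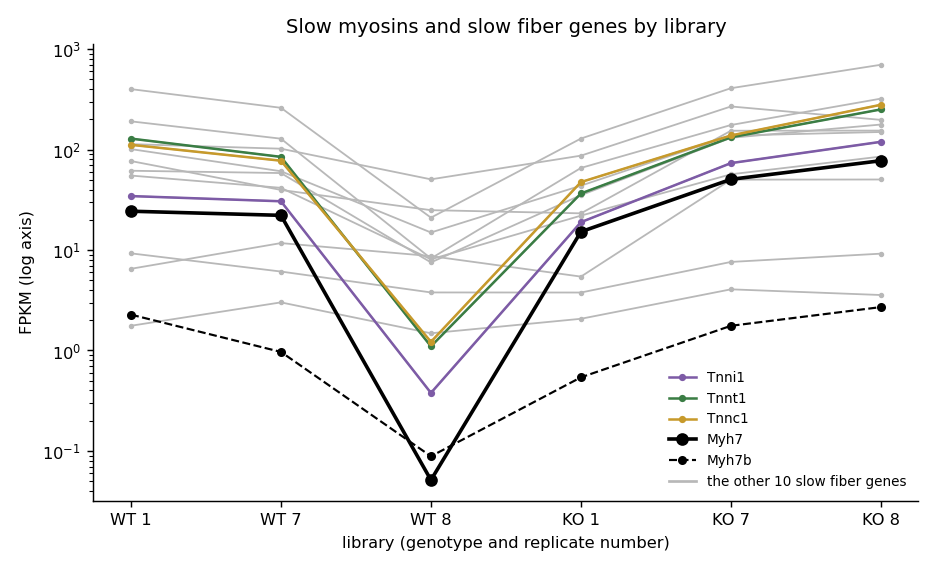
Levels (FPKM, log axis) of *Myh7*, *Myh7b* and 13 slow fiber genes in every library, with lines that join the values of 1 gene. The slow troponins *Tnni1*, *Tnnt1* and *Tnnc1* lie lowest in WT replicate 8, at 0.378, 1.10 and 1.22 FPKM, as *Myh7* does.

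*Myh7b* (ENSMUSG00000074652) was at 2.27, 0.967 and 0.0885 FPKM in WT and at 0.540, 1.76 and 2.70 FPKM in KO muscle. WT replicate 8 was again the lowest, 10.9-fold under the next WT library, and the groups overlapped. The log2 fold change was 0.94 (standard error 0.94, 95% interval -1.26 to 3.13, limma adjusted p = 0.547), and without WT replicate 8 it turned to -0.09. *Myh7b* kept a near constant proportion to *Myh7* in the KO mice, with ratios of 0.0355, 0.0348 and 0.0349 in replicates 1, 7 and 8, while *Myh7* itself spanned a 5.09-fold range there. In the WT mice the ratios were 0.0935, 0.0437 and 1.72, all above the KO ratios. The mean log2 difference of KO against WT was -2.45 (exact permutation test, two-sided, p = 0.1, adjusted p = 0.4), and without WT replicate 8 it was -0.86. The value of 1.72 rests on about 6 fragments of *Myh7* and 11 of *Myh7b*.

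*Myh6* (ENSMUSG00000040752), the alpha cardiac chain, was at 2.87, 1.76 and 1.17 FPKM in WT and at 1.65, 6.56 and 7.34 FPKM in KO muscle. KO replicate 1 lay inside the WT range, and KO replicates 7 and 8 lay above all WT libraries. The log2 fold change was 1.21 (standard error 0.57, 95% interval -0.12 to 2.54, limma adjusted p = 0.221), and without WT replicate 8 it was 0.91. Markers of cardiac muscle other than myosin heavy chains did not follow *Myh6*. Of the 7 markers, 3 passed the filter and 5 were at 0 in at least 1 library. Their summed level was 1.00, 0.296 and 7.95 FPKM in WT and 1.28, 3.72 and 0.564 FPKM in KO muscle, highest in WT replicate 8, where *Myh6* was lowest, and 0 of the 3 tested were called. *Tnni3*, the cardiac troponin I, was at 1.01 ± 0.984 FPKM (SD, n = 3) in the WT mice and 1.39 ± 1.63 (SD, n = 3) in the KO mice, a log2 fold change of 0.31 that was 1.04 without WT replicate 8.

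The ratios of the slow to the fast chains did not separate the genotypes. *Myh7* to *Myh1* was 0.0276, 0.0587 and 0.000253 in WT and 0.0315, 0.0550 and 0.148 in KO muscle (exact permutation test, two-sided, p = 0.3, adjusted p = 0.6). Its mean log2 difference, 3.10, became 0.66 without WT replicate 8. *Myh7* to *Myh2* was 0.137, 0.124 and 0.000187 in WT and 0.050, 0.121 and 0.235 in KO muscle (exact permutation test, two-sided, p = 0.7, adjusted p = 0.8). Here the mean log2 difference, 2.94, became -0.21 without WT replicate 8.

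*Myh8* (ENSMUSG00000055775), the perinatal chain, was at 0.776, 0.700 and 0.821 FPKM in WT and at 1.32, 3.21 and 1.39 FPKM in KO muscle. The WT libraries were within 1.17-fold of each other, and all KO libraries lay above them, replicate 7 by far the most. These levels equal about 83 to 102 fragments in WT and 113 to 358 in KO libraries. The means were 0.765 ± 0.0610 FPKM (SD, n = 3) and 1.97 ± 1.07 FPKM (SD, n = 3). The log2 fold change was 1.15 (standard error 0.34, 95% interval 0.35 to 1.95), with an unadjusted p of 0.0112 and an adjusted p of 0.105 in limma, so *Myh8* did not pass. Leaving out each library gave 0.75 to 1.36.

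*Myh3* (ENSMUSG00000020908), the embryonic chain, was at 0.287, 0.171 and 0.207 FPKM in WT and at 0.218, 0.522 and 0.451 FPKM in KO muscle, under the filter of a mean of 0.5 FPKM. KO replicate 1 lay inside the WT range. The values equal about 20 to 33 fragments in WT and 18 to 57 in KO libraries. The difference of the means of log2(FPKM + 0.1) was 0.59 (exact permutation test, two-sided, p = 0.2), which was not beyond the spread. Of the 20361 genes above 0 in any library, 13.4% had all KO above all WT libraries, and *Myh3* was not among them.

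Other genes of developing and regenerating muscle gave the setting for *Myh3* and *Myh8*. Of 14, 8 passed the filter, 6 of these had a higher mean in KO muscle and 1 was called. *Ncam1*, a cell adhesion molecule that muscle fibers show when they lose their nerve or regenerate, rose from 1.21 ± 0.0988 FPKM (SD, n = 3) to 3.40 ± 0.470 FPKM (SD, n = 3). Its log2 fold change was 1.41 (standard error 0.17, limma adjusted p = 0.0300). Fits that left out 1 library gave 1.32 to 1.52 and adjusted p-values of 0.0546 to 0.235, so 0 of those 6 fits called *Ncam1*. With genes listed at 0 in any library left out, 0 genes of the lists were called, so *Ncam1* was not called there either. For *Myl4*, the embryonic and atrial light chain, the log2 fold change was 0.95 (limma standard error 0.26, adjusted p = 0.0944), with all KO above all WT libraries. That arrangement was found in 18.3% of tested genes. *Actc1*, cardiac actin, *Myf6* and *Myod1*, muscle-determining transcription factors, had log2 fold changes of 0.22, 0.03 and 0.41 and did not pass, and *Actc1* had -0.12 without WT replicate 8. The median of the list was 0.23.

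**Figure D5:**
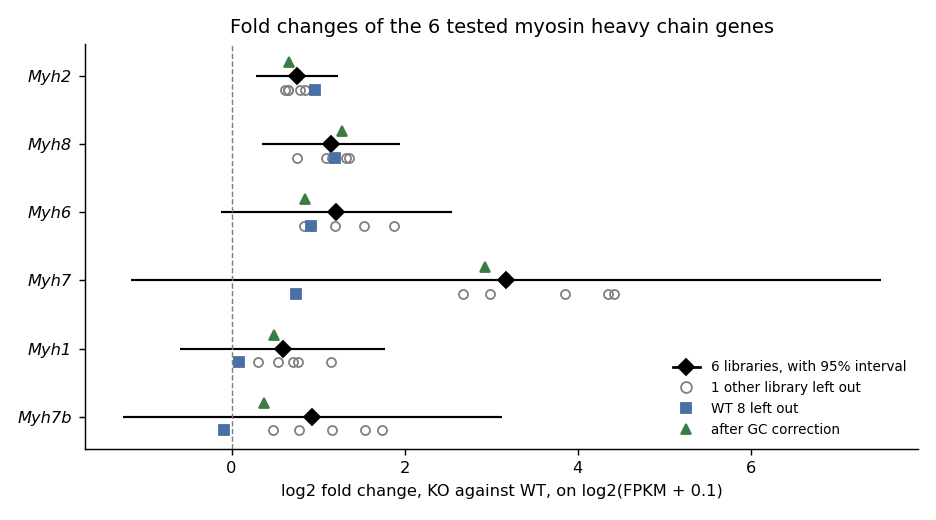
Log2 fold change of KO against WT for the 6 tested myosin heavy chain genes. Diamonds with bars are the fit to 6 libraries with its 95% interval, circles and squares are the fits with 1 library left out (squares: WT replicate 8), and triangles are the fits after correction for GC content. The intervals of *Myh2*, 0.28 to 1.23, and *Myh8*, 0.35 to 1.95, lie above 0 before adjustment for the number of genes, and *Myh7* drops from 3.17 to 0.75 without WT replicate 8.

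The GC content of the transcripts differed between the myosins, from 48.3% GC for *Myh8* to 59.7% for *Myh7b*. After each library was corrected for its trend on GC content, the log2 fold changes were 0.66 for *Myh2*, 1.28 for *Myh8*, 0.85 for *Myh6*, 2.92 for *Myh7*, 0.49 for *Myh1* and 0.37 for *Myh7b*. All 6 kept their direction and 0 passed, and *Myh2* then had an adjusted p of 0.318 in limma.

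Fast fiber genes other than the heavy chains showed no common direction. Of 13, 11 were tested, 6 of these were higher in KO muscle and the median log2 fold change was 0.17. The 4 most abundant, *Myl1*, *Mylpf* and *Tnnc2*, which are fast light chains and troponin C, and *Pvalb*, a calcium buffer, had log2 fold changes of -0.31, -0.05, 0.17 and -0.15, with limma adjusted p-values of 0.380 to 0.896. The 1 gene called was *Tpm1*, tropomyosin 1, listed at 0 in all WT libraries and at 14651 to 19415 FPKM in KO libraries, so no fold is given. *Tpm1* is 1 of the 6 counted as higher. With genes listed at 0 in any library left out, 10 fast fiber genes were tested and the median was 0.06. Thick filament partners of myosin gave 9 tested genes with a median of 0.63 and 1 called, *Ttn*, the giant spring protein titin, also listed at 0 in all WT libraries. That median includes *Ttn*. The WT values of *Tpm1* and *Ttn* are given as listed and not as a measured absence. *Mybpc2* and *Mybpc1*, the fast and slow myosin binding proteins C, had log2 fold changes of 0.26 and 0.52, and *Myom2* and *Myom1* of the M-band 0.00 and -0.02, and none of these 4 passed. Without WT replicate 8 the value of *Mybpc1* was 0.04.

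Regulators of fiber type had 0 called genes in limma. Of 16 genes on the slow side, 15 were tested, 7 were higher and the median log2 fold change was -0.03. At an unadjusted p under 0.05, 5 were higher and 4 lower, where 15.3% and 10.9% of all tested genes were. Among the most abundant, *Ppp3cb* and *Ppp3r1*, subunits of the phosphatase calcineurin, had log2 fold changes of -0.45 (adjusted p = 0.106 in limma) and -0.53 (adjusted p = 0.101 in limma) and every KO library was under every WT library, an arrangement found in 16.2% of tested genes. After correction for GC content they were -0.02 and -0.14. *Mef2c*, a factor of the MEF2 family, and *Ppp3ca* had -0.24 each, which turned to 0.12 and 0.04 after that correction. Of 12 genes on the fast side, all were tested, 6 were higher and the median was -0.01, with 2 higher and 1 lower at an unadjusted p under 0.05.

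A long noncoding RNA of the cluster belongs to that fast side. *2310065F04Rik* lies on the minus strand between *Myh3* and *Myh2*, from 67112461 to 67120080. It was at 105, 114 and 145 FPKM in WT and at 86.3, 83.3 and 108 FPKM in KO muscle, with KO replicate 8 inside the WT range. Its log2 fold change was -0.39 (adjusted p = 0.179 in limma), opposite in sign to that of its neighbour *Myh2*. *Tbx15* and *Maf*, transcription factors of fast fibers, had -0.14 and -0.31. *Nfix*, a factor of the fetal muscle program, had 0.62 (adjusted p = 0.103 in limma) with all KO above all WT libraries, as 18.3% of tested genes had. After correction for GC content *2310065F04Rik*, *Tbx15*, *Maf* and *Nfix* had -0.27, -0.03, -0.23 and 0.15. None of these 4 passed.

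Genes known as targets of the intronic microRNAs were measured although the microRNAs were listed at 0. The repressors *Sox6*, *Purb* and *Sp3* and the chromatin protein *Cbx1* were all tested, with log2 fold changes of -0.30, -0.53, -0.38 and -0.28, and 0 of 4 were called (adjusted p from 0.118 to 0.313 in limma). *Purb* and *Cbx1* had all KO libraries under all WT libraries, as did 16.2% of all tested genes. At an unadjusted p under 0.05, 3 of the 4 were lower, beside 10.9% of all tested genes. After correction for GC content *Sox6*, *Cbx1* and *Sp3* had -0.14, -0.10 and 0.04, and *Purb* had no value.

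The folding and turnover machinery of myosin was tested for 9 genes, of which 6 were higher, 0 were called and the median was 0.13, with 3 higher at an unadjusted p under 0.05. Over all tested genes, 15.3% were higher at that p. *Hsp90ab1* and *Smyd1*, a chaperone and a methyltransferase needed for thick filament assembly, had log2 fold changes of 0.13 and -0.19. *Trim63*, the ubiquitin ligase MuRF1, had 0.24, and its relative *Trim54* was at 56.7 ± 23.7 FPKM (SD, n = 3) in WT muscle and at 136 ± 3.76 FPKM (SD, n = 3) in KO muscle, a difference of 1.35 on the log2 scale (limma standard error 0.28, adjusted p = 0.0708), which was 0.78 after correction for GC content.

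The myosin heavy chains of smooth muscle and of other cells were set beside the sarcomeric ones. Of 6, 4 were tested, all 4 were higher in KO muscle, 0 were called, 3 had an unadjusted p under 0.05 and the median log2 fold change was 0.59. *Myh9*, a chain found in most cell types, had 0.60 (adjusted p = 0.111 in limma), *Myh14* had 0.85 (adjusted p = 0.0667 in limma) and *Myh11*, the smooth muscle chain, 0.57 (adjusted p = 0.169 in limma), each with all KO above all WT libraries. Over all tested genes 15.3% were higher at an unadjusted p under 0.05, and 18.3% had all KO above all WT libraries. After correction for GC content they were 0.35, 0.26 and 0.41. *Myh10* had 0.41 before and 0.44 after it, and 0.07 without WT replicate 8. Smooth muscle markers, of which 4 of 5 were tested, had a median log2 fold change of 0.64 and sums of 38.8 to 44.1 FPKM in WT and 59.5 to 78.7 FPKM in KO muscle, and 0 were called. All 4 were higher at an unadjusted p under 0.05 and had all KO above all WT libraries, beside the 15.3% and 18.3% given above. Their part in the level of *Myh11*, which is one of them, was not tested.

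Markers of further cell types were read beside *Myh2* and *Myh8*, the chains with all KO above all WT libraries. Adipocyte markers, 6 of 6 tested, were all higher in KO muscle with a median log2 fold change of 1.88. Beside 15.3% of all tested genes higher at an unadjusted p under 0.05, 4 of these markers were, and 0 were called. Their sums of 442, 233 and 234 FPKM in WT and 299, 609 and 336 FPKM in KO muscle overlapped between the genotypes and were highest in KO replicate 7, as were *Myh2* and *Myh8*. *Fabp4*, a fatty acid carrier, held most of these sums, with 284 ± 108 FPKM (SD, n = 3) in the WT mice and 334 ± 102 (SD, n = 3) in the KO mice. Its log2 fold change of 0.26 was the lowest of the 6, so the sums mostly show the marker that differed least. Of the 6, 2 had all KO above all WT libraries, beside 18.3% of all tested genes. Tendon markers, 5 of 5 tested and all higher, had a median of 0.37 and sums of 94.7, 73.0 and 41.6 FPKM in WT and 176, 140 and 68.0 FPKM in KO muscle. WT replicate 8 was the lowest library for 4 of these 5 markers, as it was for *Myh7*. The part of these cells in the myosin levels was not tested.

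For each tested chain, the 3 genes with the most similar profile over the 6 libraries were found by the Pearson correlation of log2(FPKM + 0.1), as a description over 6 points that share their libraries. For *Myh7* these were *Tnni1* (0.997), *Tnnc1* (0.995) and *Ccdc62* (0.994), and 2 of the 3 are slow fiber genes. For *Myh7b* they were *Atp2a2*, the slow calcium pump, *Myl2* and *Lgi1* (0.988, 0.987 and 0.984), again 2 slow fiber genes. For *Myh6* they were *1110001J03Rik*, *Fam179a* and *Pdlim1* (0.986, 0.984 and 0.982), for *Myh1* *Icosl*, *Ptpn3* and *Prkch* (0.991, 0.989 and 0.989), for *Myh2* *Mea1*, *Gmppa* and *Gm10774* (0.997, 0.995 and 0.994), and for *Myh8* *Mt2*, *Lrp1* and *Ptms* (0.998, 0.996 and 0.993). None of the genes found for *Myh1*, *Myh2*, *Myh6* or *Myh8* is on the slow fiber list. *Gm10774* was listed at 0 in WT replicates 1 and 7.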

How the data were processed

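Gene expression was measured by RNA-seq in GAS muscle of 3 WT and 3 KO mice, with 1 library per mouse (TruSeq Stranded mRNA kit, paired reads). The authors used TopHat for mapping to GRCm38, and deposited the FPKM of 37979 genes as given by Cufflinks. Tool versions and the annotation release are not given in the sources used here. Counts were not used, and the depth is an estimate from the steps of low values, of which 84.6% to 90.4% lay within 0.15 of a whole fragment. The labels name no batch.

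Values were log2(FPKM + 0.1), a scale that understates the change of low genes. Genes whose mean over the libraries reached 0.5 FPKM, 12334 in all, were fitted with limma 3.58.1 (R 4.3.3) with a variance trend, and the Benjamini-Hochberg adjustment covered all of them. Single values were compared by exact permutation tests (scipy 1.17.1). GC content and gene limits came from GENCODE vM21, and a loess curve of span 0.3 on GC content was subtracted from each library as an alternative. Among 14983 genes above 0 in every library, each pair of libraries shared 0 or 1 equal values, so each was counted as a replicate. The fit was tested on simulated data built from genes above 0 in every library, with a capped spread. That test does not cover genes listed at 0 or a spread like that of *Myh7* in WT muscle.

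The 8 genes and the 20 gene lists (157 genes, all matched) were chosen with earlier results of these data known. In each list the 4 most abundant genes and all called genes were eligible to be named, and for each tested chain the 3 most similar genes. Outside this rule, *Tnnt1*, *Cilp2* and *Vps13d*, low in WT replicate 8, the fast genes *Tnnt3* and *Atp2a1*, listed at 0, and the antisense genes were named after their values were seen. A 3 against 3 comparison cannot give an exact p under 0.1. The alternatives, 17 in all, covered the pseudocount, filter, scaling, variance model, array weights, replicate block, GC content, genes listed at 0 and leaving out each library.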

Additional observations from a re-analysis of the deposited data

How the results depend on the processing

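The number of myosin heavy chain genes called stayed at 0 in 16 of 17 alternatives. With array weights it was 3, with log2 fold changes of 0.85 for *Myh2* (adjusted p = 0.0114), 1.55 for *Myh6* (adjusted p = 0.0322) and 1.03 for *Myh8* (adjusted p = 0.0202). In all other alternatives the adjusted p of *Myh2* was 0.0704 to 0.318 and that of *Myh8* 0.0898 to 0.279. The number of all genes called was 40. It was 11 with a pseudocount of 1, 20 with no filter, 18 with quantile normalization, 19 with no variance trend, 3147 with array weights, 13 with GC correction, 1 with genes listed at 0 left out, and 11 to 38 with a library left out. The median of the fast fiber genes became -0.27 with quantile normalization. *Myh7b* had log2 fold changes of -0.091 to 1.74 with a library left out, negative without WT replicate 8. The *Myh2* to *Myh1* ratio had log2 differences of -0.50 to 0.87 with a library left out, negative without WT replicate 1, and the *Myh7* to *Myh2* ratio -0.21 to 4.54, negative without WT replicate 8. The cause of these shifts was not tested. The array weights were 0.355, 6.12 and 0.729 for WT replicates 1, 7 and 8. For KO replicates 1, 7 and 8 they were 0.674, 0.477 and 1.97. The WT side of the fit with array weights therefore rests mostly on WT replicate 7.

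Libraries of the same number did not deviate together (correlations of -0.11, -0.09 and 0.00). With 3 libraries per genotype, each set against its group mean, this cannot decide whether the numbers pair the mice, and the labels do not say. A fit with the replicate number as a block called 13 genes and 0 of the myosin heavy chains. *Myh3*, *Myh7* in WT replicate 8 and *Myh7b* in WT replicate 8 rest on few fragments, which limits their precision.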

Other observations

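Other cell types in the muscle were described by markers with 0 called in limma. Blood markers, 5 of 5 tested and all with a higher mean in KO muscle, had a median log2 fold change of 0.23. An unadjusted p under 0.05 was found for 2 of them, beside 15.3% of all tested genes higher at that p. *Hba-a1* and *Hba-a2*, near-identical copies of alpha globin, had 1.31 (adjusted p = 0.0750 in limma) and 1.02 (adjusted p = 0.0954 in limma), while *Hbb-bs* and *Hbb-bt*, beta globins, had 0.23 and 0.01. Endothelial markers had a median of -0.03, with 0.09 for *Pecam1* and -0.44 for *Kdr*. Fibroblast markers had a median of 0.25, with -0.15 for *Dcn*, 0.78 for *Col1a2* and 1.33 for *Col1a1*. Leukocyte markers, of which 5 of 6 were tested and 4 of these were higher, had a median of 0.30, with 0.47 for *Csf1r*, 1.13 for *Cd68*, 0.27 for *Adgre1* and -0.29 for *Cd3e*. Schwann cell markers had a median of 0.17, and their sums were 35.4, 65.9 and 13.2 FPKM in WT and 14.8, 90.5 and 32.4 FPKM in KO muscle, with the genotypes overlapping. Of the 8 skeletal muscle genes, 6 were higher in KO muscle, with a median of 0.44. *Acta1*, skeletal actin, and *Ckm*, muscle creatine kinase, had 0.83 and 0.81, with all KO above all WT libraries, as 18.3% of tested genes had. After correction for GC content these 2 had 0.39 and 0.46.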
